A study of Mus musculus with 7 samples.

Results

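Thick ascending limb cells of the mouse kidney, the cells that line the later part of the loop of Henle, were divided by which of a pair of claudin genes they carried. The cells belong to cluster 4 of the authors' clustering of single cells from whole kidneys. The Cldn10 side held the 637 cells with at least 1 unique molecular identifier (UMI, a tag that marks a single captured RNA molecule) of Cldn10 and 0 of Cldn16. The Cldn16 side held the 271 cells with at least 1 UMI of Cldn16 and 0 of Cldn10. Together they made up 908 of 1581 cells of cluster 4 and of 43745 cells in all. The remaining cells of the cluster, 74 with UMIs of both genes and 599 with UMIs of neither, entered no test. The study took 7 whole kidneys of C57BL/6 mice aged 4 to 8 weeks: 1 Cdh16CremTmG, 1 SclCremTmG, 1 of another Cre line with the mTmG reporter and 4 WT. mTmG is a membrane-targeted reporter whose colour changes in cells in which Cre has acted, and Cdh16 and Scl drive Cre in tubular epithelium and in blood and vessel lineages. Barcodes end in a number from 1 to 7, read here as the library. Which mouse a number stands for is not given in the sources used here, so genotypes were not compared and all 7 kidneys formed one set, with a Cldn10 side and a Cldn16 side from each.

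Claudins are membrane proteins of the tight junction that set which ions pass between neighbouring epithelial cells. In the thick ascending limb the cotransporter NKCC2, encoded by Slc12a1, takes up sodium, potassium and chloride, the channel ROMK, encoded by Kcnj1, recycles potassium into the lumen, and the resulting lumen-positive voltage drives cations between the cells. Claudin-10b lets sodium pass, whereas claudin-16 and claudin-19 let calcium and magnesium pass, and loss of CLDN16 or CLDN19 in humans causes a disease with loss of magnesium and calcium in the urine. Thick limb cells are known to form a mosaic of junctions of both kinds, and claudin-16 is known mainly from the cortical part of the limb.

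Cldn10 is transcribed from alternative first exons, which give Cldn10b, the thick limb form, and Cldn10a, known from the proximal tubule. Which of the starts below gives which form was not determined here. The deposited counts are per gene and do not part these forms. The windows below are the 250 bases before each start on the plus strand in RefSeq (GRCm38.p6). They are shown for both starts of Cldn10, for Cldn16, and for 2 genes with large differences between the sides, the prostaglandin receptor gene Ptger3 and Tmem52b. Capitals mark matches, on either strand, to the letters ACANNTGT (bound by Iroquois factors), TGTTTAC (forkhead factors), GTTAAT (an HNF1 half-site), AAGGTCA (oestrogen-related receptors) or TATAAA (the TATA box).

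Cldn10 start 1: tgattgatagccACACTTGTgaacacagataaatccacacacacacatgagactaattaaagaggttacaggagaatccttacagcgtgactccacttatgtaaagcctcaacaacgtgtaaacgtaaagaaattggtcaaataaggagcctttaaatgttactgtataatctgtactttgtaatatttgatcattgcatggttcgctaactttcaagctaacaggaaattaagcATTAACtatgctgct
Cldn10 start 2: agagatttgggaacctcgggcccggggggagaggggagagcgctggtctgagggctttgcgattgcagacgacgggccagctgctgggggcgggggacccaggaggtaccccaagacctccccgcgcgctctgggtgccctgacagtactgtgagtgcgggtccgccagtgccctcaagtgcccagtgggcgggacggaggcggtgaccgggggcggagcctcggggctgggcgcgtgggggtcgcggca
Cldn16: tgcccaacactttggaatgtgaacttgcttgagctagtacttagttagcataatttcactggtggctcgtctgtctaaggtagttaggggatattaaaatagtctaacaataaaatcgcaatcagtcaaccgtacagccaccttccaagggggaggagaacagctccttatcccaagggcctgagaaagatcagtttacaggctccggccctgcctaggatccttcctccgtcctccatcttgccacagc
Ptger3: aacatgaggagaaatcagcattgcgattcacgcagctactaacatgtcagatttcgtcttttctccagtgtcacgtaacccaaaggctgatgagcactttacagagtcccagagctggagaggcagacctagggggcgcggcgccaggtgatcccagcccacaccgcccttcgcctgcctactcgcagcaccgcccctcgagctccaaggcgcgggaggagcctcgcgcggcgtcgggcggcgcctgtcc
Tmem52b: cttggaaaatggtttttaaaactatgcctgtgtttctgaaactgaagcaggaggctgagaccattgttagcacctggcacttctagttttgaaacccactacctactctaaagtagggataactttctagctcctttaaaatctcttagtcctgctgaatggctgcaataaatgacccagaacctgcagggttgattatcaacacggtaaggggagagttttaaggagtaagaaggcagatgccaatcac

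The windows lie on chromosome 14 from 118787621 to 118787870 (first Cldn10 start), on chromosome 14 from 118854700 to 118854949 (second Cldn10 start), on chromosome 16 from 26462885 to 26463134 (Cldn16), on chromosome 3 from 157566626 to 157566875 (Ptger3) and on chromosome 6 from 129512307 to 129512556 (Tmem52b). The Cldn10 starts are 67079 bases apart. The first window is 36.0% G or C with 4 CG pairs, and the second is 72.4% G or C with 22. The first holds ACACTTGT, 238 to 231 bases before the start, and ATTAAC, the reverse strand of the HNF1 half-site, 15 to 10 bases before it. None of the 5 sets of letters is in the windows of the second Cldn10 start, Cldn16, Ptger3 or Tmem52b. Of 32851 windows in the table, 6.31% hold the Iroquois letters, 3.17% the forkhead letters, 6.43% the HNF1 half-site, 4.08% the oestrogen-related receptor letters and 12.4% the TATA letters. A match describes the letters only.

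The rule used the UMIs of Cldn10 and Cldn16 themselves, so neither gene was tested. Many cells sat at the edge of the rule: 196 of 637 cells on the Cldn10 side (30.8%) and 178 of 271 cells on the Cldn16 side (65.7%) held exactly 1 UMI of their gene. Cldn10 was also present outside the thick limb. It was seen in 37.4% of cells of the proximal tubule-like cluster 3 (208 CPM, the UMIs of a gene per 1000000 UMIs) and in 7.65% of cells of the T lymphocyte-like cluster 14 (43.7 CPM, median depth 1875 UMIs), a cell type that should lack it. Cldn16 was seen in 0 of 1308 cells of cluster 14 and in 0.0755% of cells of cluster 3.

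Every library contributed to both sides, with 50 to 159 cells on the Cldn10 side and 25 to 61 on the Cldn16 side. Cldn10 side cells made up 39.7% ± 5.64 of a library's cluster 4 cells and Cldn16 side cells 17.8% ± 5.43 (mean ± SD, n = 7). The summed depth was 1693653 UMIs on the Cldn10 side and 726980 on the Cldn16 side. A cell's median depth was close, at 2495 ± 491 UMIs on the Cldn10 side and 2492 ± 460.3 on the Cldn16 side (mean of library medians ± SD), and a library's median cell showed 796 to 1151 genes on the Cldn10 side and 839.5 to 1165 on the Cldn16 side. Libraries 5 and 6 held the most cells of the matrix. Barcode sequences recurred across libraries for 1962 cells, 40 of them on either side, and no barcode was shared between side cells.

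Both sides carried the defining RNA of the thick limb at levels that the test did not part. Slc12a1 averaged 4709 ± 792 CPM on the Cldn10 side and 4142 ± 553 CPM on the Cldn16 side (mean ± SD over 7 libraries), and it was seen in 95.9% of cells on the Cldn10 side and 96.4% on the Cldn16 side, against 2.22% of cluster 14 cells. Umod, which encodes uromodulin, the most abundant protein of normal urine, averaged 8965 ± 2662 CPM on the Cldn10 side and 8960.0 ± 2104 CPM on the Cldn16 side. The log2 fold change of the Cldn10 side over the Cldn16 side was 0.21 ± 0.09 for Slc12a1 (± SE, edgeR quasi-likelihood test, Benjamini-Hochberg adjusted p = 0.175) and 0.02 ± 0.12 for Umod (adjusted p = 0.951). A positive log2 fold change means higher on the Cldn10 side throughout. The 12 thick limb markers, all detected on each side, summed to 20010.0 ± 4449 CPM on the Cldn10 side and 23620.0 ± 3690.0 CPM on the Cldn16 side, against 136 CPM in cluster 3, 5355 CPM in cluster 5 and 318 CPM in cluster 14, so the label as loop of Henle held for both sides.

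Across all genes, 1945 had enough counts to be tested with the library as a block. The test called 148 of them (7.61%) at a threshold of 0.05 on the adjusted p: 72 were higher on the Cldn10 side (3.7%) and 76 lower (3.91%). At least a 2-fold difference was seen for 27 of the higher and 17 of the lower genes. Without regard to the adjustment, 346 genes (17.8%) had a p under 0.05. The median log2 fold change over all genes tested was 0.01. Among the genes called, 39 of 72 higher genes were higher in all 7 libraries and 53 of 76 lower genes were lower in all 7. The highest and lowest library values of the sides did not overlap for 35 genes (1.8% of those tested), 16 of them higher (0.823%) and 19 lower (0.977%).

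**Figure D1:**
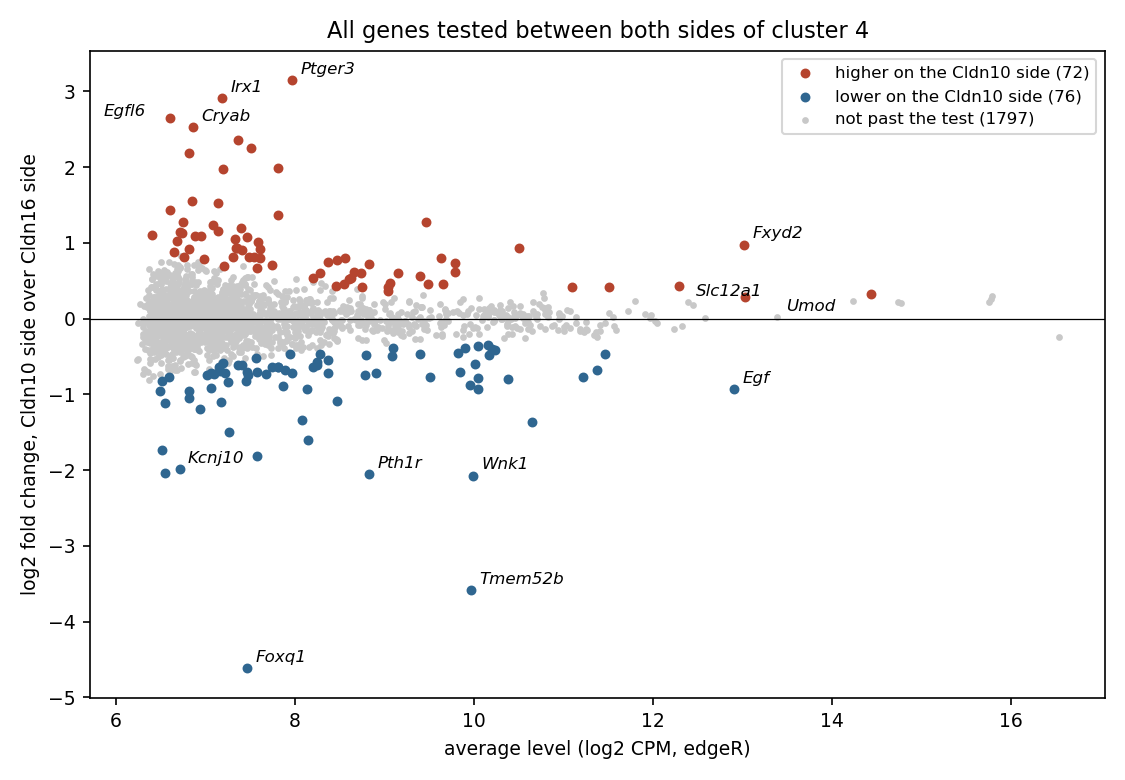
Each point is a gene tested between the sides of cluster 4, with its average level on the x axis (log2 CPM) and its log2 fold change, Cldn10 side over Cldn16 side, on the y axis. The 72 genes higher on the Cldn10 side are red, the 76 lower ones blue and the others grey, with Ptger3 at the top, Foxq1 and Tmem52b at the bottom, and Slc12a1 near 0.

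Among the 1945 genes past the count filter, the one with the largest log2 fold change was Ptger3 (ENSMUSG00000040016, chromosome 3 from 157566892 to 157645888 on GRCm38, GENCODE vM21), whose promoter is shown above. It encodes the prostaglandin E2 receptor EP3, which lowers cyclic AMP and opposes vasopressin in the thick limb. Its level was 179 CPM in the lowest, 269 in the median and 504 in the highest library on the Cldn10 side, against 0, 33.3 and 53.8 CPM on the Cldn16 side. Every library's Cldn10 side stood above every Cldn16 side. The log2 fold change was 3.15 ± 0.25 (edgeR adjusted p = 5.19e-14). Ptger3 was seen in 288 of 637 cells of the Cldn10 side and in 15 of 271 cells of the Cldn16 side, against 0.459% of cluster 14 cells. With each cell thinned to 1000 UMIs (27 and 6 shallower cells left out), these shares were 23.8% ± 9.88 on the Cldn10 side and 1.83% ± 1.74 on the Cldn16 side (SD, n = 7), compared with 47.7% on the Cldn10 side and 4.76% on the Cldn16 side before thinning.

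The Iroquois transcription factor genes Irx1 and Irx2, which lie together on chromosome 13 and take part in patterning the middle segments of the nephron, came next among regulators. Irx1 (ENSMUSG00000060969, chromosome 13 from 71957921 to 71963723) ran from 75.0 to 232 CPM on the Cldn10 side (median 152), against 0 to 71.2 CPM on the Cldn16 side (median 14.7). The sides did not overlap, although the upper end of the Cldn16 side came close to the lower end of the Cldn10 side. Its log2 fold change was 2.91 ± 0.32 (edgeR adjusted p = 7.18e-10). Irx2 (ENSMUSG00000001504, chromosome 13 from 72628820 to 72634198) lay between 80.7 and 151 CPM on the Cldn10 side and between 0 and 47.4 CPM on the Cldn16 side, with a log2 fold change of 2.19 ± 0.32. In both genes cluster 4 had the highest level of all 16 clusters. Another Iroquois gene, Irx3, was under the low-count filter, with 24 UMIs on the Cldn10 side and 44 on the Cldn16 side. Its mean of 13.9 ± 7.14 CPM on the Cldn10 side was below that of 70.4 ± 46.7 CPM on the Cldn16 side in 7 of 7 libraries, which is opposite to Irx1 and Irx2. In a fit without the filter, Irx3 had a log2 fold change of -2.05 ± 0.38 (edgeR adjusted p = 1.54e-05).

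Egfl6 encodes a secreted protein with EGF-like repeats and averaged 94.9 ± 25.2 CPM on the Cldn10 side and 16.6 ± 18.8 CPM on the Cldn16 side. Cryab encodes alpha-B-crystallin, a small heat shock protein that is abundant in the hypertonic medulla, and averaged 121 ± 39.3 CPM on the Cldn10 side and 21.1 ± 18.3 CPM on the Cldn16 side. Their log2 fold changes were 2.64 ± 0.38 and 2.52 ± 0.34 (edgeR adjusted p = 5.52e-07 and 1.97e-07), without overlap of the sides in either. The Cryab value of library 3 on the Cldn10 side, 207 CPM, stood apart from the next, 121 CPM. Hist1h1c, a linker histone gene, had a log2 fold change of 2.36 ± 0.25, and Gpx6, a glutathione peroxidase gene, one of 1.99 ± 0.25.

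The other genes named on the Cldn10 side had log2 fold changes between 1.16 and 1.97. They were Aebp1, a gene of the extracellular matrix, Lrp6, a co-receptor of Wnt ligands, Enpp2, which encodes autotaxin, the enzyme that makes lysophosphatidic acid, Tmem86a, the apolipoprotein gene Apoe, Degs1, an enzyme gene of ceramide synthesis, the antiproliferative gene Btg1 and the interferon-induced gene Ifi27. Among these, Lrp6, at 104 ± 26.3 CPM on the Cldn10 side and 38.0 ± 16.7 CPM on the Cldn16 side, did not overlap between sides, and neither did Enpp2, Tmem86a, Btg1 or Ifi27. Aebp1, Apoe and Degs1 did overlap, although the Cldn10 side was higher within each of the 7 libraries, which the rule for naming genes required. Ifi27 and Apoe lost the call with at least 2 UMIs of Cldn10 or Cldn16 required of a cell (edgeR adjusted p = 0.271 and 0.0576).

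**Figure D2:**
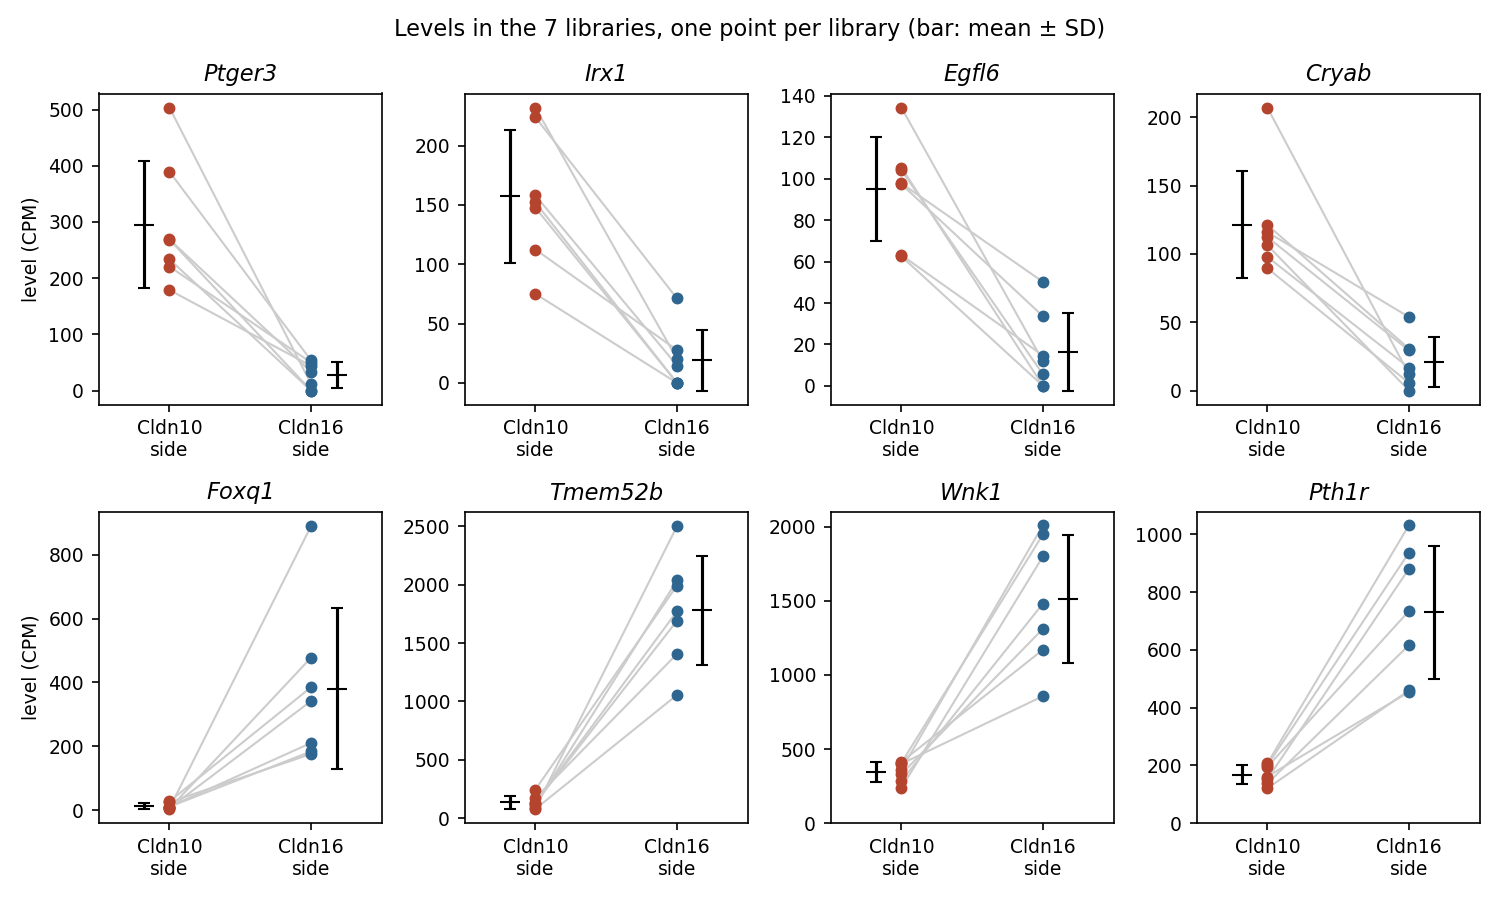
Levels in CPM of 8 genes in the 7 libraries, each library a point on the Cldn10 side (red) and on the Cldn16 side (blue), joined by a line, with the mean and SD beside them. The upper genes, Ptger3, Irx1, Egfl6 and Cryab, were higher on the Cldn10 side in 7 of 7 libraries, and the lower genes, Foxq1, Tmem52b, Wnk1 and Pth1r, were lower in 7 of 7, without overlap between the sides in any of the 8.

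Among the same genes, the lowest log2 fold change was that of Foxq1 (ENSMUSG00000038415, chromosome 13 from 31556134 to 31560976), a forkhead transcription factor gene. On the Cldn10 side it ran from 4.64 to 27.2 CPM with a median of 10.4, against 176 to 889 CPM with a median of 342 on the Cldn16 side. All Cldn10 side values lay far below all Cldn16 side values, and the log2 fold change was -4.62 ± 0.26 (edgeR adjusted p = 1.36e-19). Foxq1 was seen in 17 of 637 cells of the Cldn10 side and in 124 of 271 cells of the Cldn16 side, compared with 0.382% of cluster 14 cells. At 1000 UMIs a cell the shares were 0.874% ± 1.51 on the Cldn10 side and 25.7% ± 13.7 on the Cldn16 side (SD, n = 7).

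Tmem52b (ENSMUSG00000030160, chromosome 6 from 129512555 to 129519227), a membrane protein gene, had the smallest adjusted p of all genes tested. It lay between 79.1 and 246 CPM on the Cldn10 side (median 130) and between 1056 and 2502 CPM on the Cldn16 side (median 1773). The log2 fold change was -3.58 ± 0.13 (edgeR adjusted p = 4.4e-27). Tmem52b was seen in 17.3% ± 3.77 of cells on the Cldn10 side and 89.5% ± 5.97 on the Cldn16 side (SD, n = 7), and in 11.2% of cluster 14 cells. Cluster 4 was not its main site: the principal-like cluster 6 held 1788 CPM and the distal convoluted tubule-like cluster 5 held 1737 CPM.

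Pth1r (ENSMUSG00000032492, chromosome 9 from 110722085 to 110747145), the receptor of parathyroid hormone, which raises calcium uptake in the cortical thick limb, was lower on the Cldn10 side. Its level was 121 CPM in the lowest, 161 in the median and 207 in the highest library there, against 454, 735 and 1032 CPM on the Cldn16 side. No library's Cldn10 side reached the lowest Cldn16 side, and the log2 fold change was -2.06 ± 0.12 (edgeR adjusted p = 3.13e-19). Wnk1 (ENSMUSG00000045962), a kinase gene of the pathway that switches on the cation-chloride cotransporters, averaged 348 ± 67.1 CPM on the Cldn10 side and 1512 ± 429.8 CPM on the Cldn16 side, with a log2 fold change of -2.07 ± 0.12 (edgeR adjusted p = 2.38e-19). Kcnj10 (ENSMUSG00000044708), a basolateral potassium channel gene, had a median of 32.6 CPM (highest library 81.3) on the Cldn10 side and 155 CPM (highest library 249) on the Cldn16 side, with a log2 fold change of -1.99 ± 0.26. The sides did not overlap in either gene.

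Wfdc2, which encodes a secreted protease inhibitor of epithelia, was also lower on the Cldn10 side. It averaged 780 ± 174 CPM on the Cldn10 side and 2078 ± 436 CPM on the Cldn16 side, without overlap, with a log2 fold change of -1.37 ± 0.09 (edgeR adjusted p = 1.98e-16). Zfp503 (-1.81 ± 0.18), a zinc finger gene, and Ggt1 (-1.60 ± 0.14), which encodes the enzyme that splits glutathione at the cell surface, did not overlap between sides either. The rest were Ly6c1, the immediate early gene Ier3, Shd, the phospholipase gene Plcb1, AI317395, the sulfotransferase gene Sult1d1 and the proton pump gene Atp6v1b1, with log2 fold changes between -1.73 and -0.96. AI317395 was not found in the annotation. Of these, Shd and AI317395 did not overlap between sides.

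Of the other claudins, only Cldn19, Cldn7 and Cldn8 had enough counts for the test, and none of them passed. Of 36 claudins and tight junction genes listed, 29 were in the matrix and 4 had enough counts. None of the 4 was called (7.61% over all genes tested), and so few genes cannot show a departure from that share. Their median log2 fold change was -0.29 against 0.01 over all genes tested. Cldn19, the partner of claudin-16, averaged 166 ± 33.7 CPM on the Cldn10 side and 224 ± 49.7 CPM on the Cldn16 side and was lower on the Cldn10 side in 6 of 7 libraries. Its log2 fold change of -0.39 ± 0.16 did not pass (edgeR adjusted p = 0.149). It was seen in 31.5% of cells on the Cldn10 side and 44.6% on the Cldn16 side, compared with 0.382% of cluster 14 cells. Cldn7 (-0.41 ± 0.24), Cldn8 (-0.18 ± 0.24) and the junction scaffold gene Cgnl1 (0.26 ± 0.15) did not pass. Cldn3 had 48 UMIs on the Cldn10 side and 6 on the Cldn16 side, and both it and Cldn14 were under the filter. Cldn14, which encodes an inhibitor of claudin-16 channels, had 0 on the Cldn10 side and 4 on the Cldn16 side. In a fit without the filter, Cldn3 had a log2 fold change of 1.81 ± 0.54 (edgeR adjusted p = 0.0537, higher on the Cldn10 side in 6 of 7 libraries). Cldn14 had -2.83 ± 1.67 (adjusted p = 0.792).

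Genes of sodium, potassium and chloride transport parted in both directions, although the main carriers did not pass the test. Of 38 listed, 18 were tested, 4 were higher and 4 lower on the Cldn10 side (3.7% and 3.91% over all genes tested), with a median log2 fold change of 0.05. Fxyd2, the gamma subunit of the sodium pump, was higher, with 8858 ± 1372 CPM on the Cldn10 side and 4601 ± 659 CPM on the Cldn16 side and a log2 fold change of 0.98 ± 0.09 (edgeR adjusted p = 6.62e-12, 7 of 7 libraries). Its library values ran from 6993 to 10560.0 CPM on the Cldn10 side and from 3766 to 5367 CPM on the Cldn16 side and did not overlap. Atp1b1, the beta subunit of the pump, had a log2 fold change of 0.01 ± 0.09 and did not pass.

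The kinases divided as well. Wnk4 was higher on the Cldn10 side (0.75 ± 0.15, edgeR adjusted p = 4.39e-04, 5 of 7 libraries), against the lower level of Wnk1, and its call was lost without the library block (adjusted p = 0.0995). The heteromeric partner of Kcnj10, Kcnj16, was lower (-0.65 ± 0.15), and Car2, a cytosolic carbonic anhydrase gene, was higher (0.53 ± 0.15), although not without library 5 (0.50, edgeR adjusted p = 0.0745). Kcnj1 (0.10 ± 0.12), Kcnk1 (0.08 ± 0.21), Bsnd (-0.26 ± 0.20) and Stk39, the kinase downstream of the WNKs (0.26 ± 0.25), did not pass. Kcnt1, a sodium-activated potassium channel gene, was under the filter, with 71 UMIs on the Cldn10 side and 2 on the Cldn16 side. Its mean was 42.6 ± 14.2 CPM on the Cldn10 side and 2.48 ± 4.62 CPM on the Cldn16 side, higher on the Cldn10 side in 7 of 7 libraries, and the fit without the filter gave 3.75 ± 0.63 (edgeR adjusted p = 6.9e-07). Also under the filter, Slc4a4 was higher on the Cldn10 side in that fit (1.43 ± 0.31, edgeR adjusted p = 4.56e-04, higher in 6 of 7 libraries). Car15 was lower there (-1.72 ± 0.38, edgeR adjusted p = 5.82e-04), although higher on the Cldn10 side in 2 of 7 libraries.

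**Figure D3:**
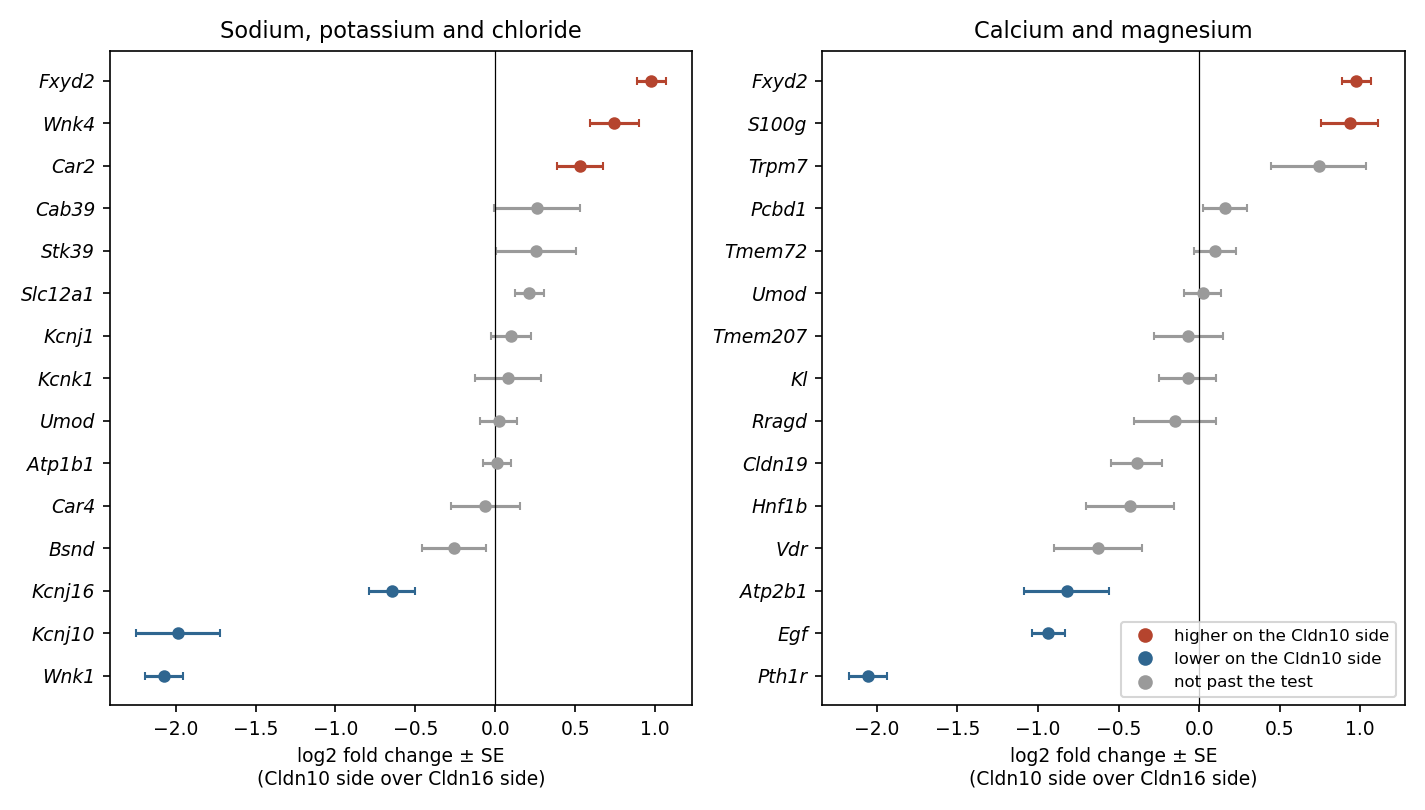
Log2 fold change, Cldn10 side over Cldn16 side, with its standard error, for tested members of the sodium, potassium and chloride list (15 of 18 shown) and of the calcium and magnesium list. Fxyd2 stands at the top of both, Wnk1 and Kcnj10 at the bottom of one and Pth1r at the bottom of the other, with Slc12a1, Kcnj1, Umod and Atp1b1 near 0.

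Of 29 genes of calcium and magnesium handling, 15 were tested, 2 were higher and 3 lower on the Cldn10 side (3.7% and 3.91% over all genes tested), with a median log2 fold change of -0.07. Beside Pth1r, the lower ones were Egf, whose product stimulates magnesium uptake in the distal convoluted tubule, and Atp2b1, a calcium pump of the plasma membrane (-0.82 ± 0.27, edgeR adjusted p = 0.0452). Atp2b1 was not called without library 2, 3, 4 or 6 (edgeR adjusted p = 0.0945, 0.209, 0.0548 and 0.184). Egf averaged 4464 ± 1317 CPM on the Cldn10 side and 8578 ± 1700.0 CPM on the Cldn16 side, was lower in 7 of 7 libraries and had a log2 fold change of -0.94 ± 0.10 (edgeR adjusted p = 1.24e-09). The library ranges, 2652 to 6093 CPM on the Cldn10 side and 5820.0 to 10300.0 CPM on the Cldn16 side, overlapped slightly. S100g, a calcium-binding protein gene of the distal convoluted tubule, was higher along with Fxyd2 (0.93 ± 0.18, edgeR adjusted p = 1.36e-04). Its level in library 5 on the Cldn16 side, 3156 CPM, stood apart from the next there, 1011 CPM, and without the library block the gene was not called (adjusted p = 0.754). Casr, the calcium-sensing receptor gene, was under the filter, with 36.5 ± 20.8 CPM on the Cldn10 side and 92.6 ± 34.2 CPM on the Cldn16 side, lower on the Cldn10 side in 7 of 7 libraries, and the fit without the filter gave -1.11 ± 0.28 (edgeR adjusted p = 0.00878). Calb1, a calcium-binding protein gene of the distal convoluted tubule, was under the filter too and ran the other way, with 102 ± 82.9 CPM on the Cldn10 side and 53.5 ± 60.3 CPM on the Cldn16 side (0.92 ± 0.25 in that fit, edgeR adjusted p = 0.0154, higher in 6 of 7 libraries).

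Of 38 hormone and paracrine receptor genes, 8 were tested and 2 passed (7.61% over all genes tested). These were Ptger3, higher on the Cldn10 side, and Pth1r, higher on the Cldn16 side. The glucagon receptor gene Gcgr (-0.19 ± 0.19), the vitamin D receptor gene Vdr (-0.63 ± 0.27), Igf1r (0.46 ± 0.20) and Erbb4, a receptor of the EGF family (0.52 ± 0.27), did not pass.

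The genes that kidney atlases associate with the cortical thick limb were mostly lower on the Cldn10 side. Of 12 listed, 7 were tested, and 5 of these were lower on the Cldn10 side and none higher (3.91% and 3.7% over all genes tested). The lower ones were Tmem52b, Wnk1, Pth1r, Kcnj10 and Egf. The median log2 fold change of the list was -1.99, against 0.01 over all genes tested. The magnesium disease candidate Tmem207 gave -0.07 ± 0.21 and Cldn19 -0.39 ± 0.16, and neither passed. Enox1 was under the filter, with 7 UMIs on the Cldn10 side and 35 on the Cldn16 side. Esrrb, also under it and in both atlas lists, ran the other way, with 88 UMIs on the Cldn10 side and 24 on the Cldn16 side. The fit without the filter gave 0.89 ± 0.35 for Esrrb (edgeR adjusted p = 0.288, higher in 5 of 7 libraries). It gave -0.22 ± 0.43 for Gp2, and Ppm1e had 0 UMIs on the Cldn10 side and 2 on the Cldn16 side. The list was drawn up with earlier results of these data known and is no independent evidence of direction.

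Of 13 medullary thick limb genes, 6 were tested, with 2 higher and 1 lower on the Cldn10 side (3.7% and 3.91% over all genes tested). Ptger3 and Slc16a7, a monocarboxylate transporter gene (179 ± 37.2 CPM on the Cldn10 side and 101 ± 30.5 CPM on the Cldn16 side, 0.91 ± 0.19, edgeR adjusted p = 5.21e-04), were the higher ones. Egf, which stands in both atlas lists, was the lower one. Rap1gap (0.37 ± 0.17) and Cyfip2 (0.00 ± 0.14) did not pass.

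Thin limb genes were mostly below the filter, and 3 of 23 were tested. On the Cldn10 side 2 of these were higher, among them Cryab, and the keratin gene Krt7 was lower (-0.64 ± 0.16). Krt7 was not called with DESeq2 (adjusted p = 0.0947) or with cells matched on UMI count (edgeR adjusted p = 0.0724). Over all genes tested, 3.7% were higher and 3.91% lower. Ptgds, which encodes a prostaglandin D synthase, had 133 UMIs on the Cldn10 side and 2 on the Cldn16 side. It was higher on the Cldn10 side in 7 of 7 libraries, with 42.2 to 131 CPM there and 0 to 11.1 CPM on the Cldn16 side, and the fit without the filter gave 4.70 ± 0.54 (edgeR adjusted p = 2.31e-15). Jag1, a Notch ligand gene, had 13.2 ± 6.10 CPM on the Cldn10 side and 49.4 ± 21.9 CPM on the Cldn16 side, and the fit without the filter gave -1.90 ± 0.40 (edgeR adjusted p = 2.94e-04).

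Among 45 nephron transcription factor genes, 12 were tested, 2 higher (Irx1 and Irx2) and 3 lower on the Cldn10 side. The shares over all genes tested were 3.7% and 3.91%, and the median log2 fold change of the list was -0.32. Beside Foxq1, the lower ones were the homeobox gene Hoxd8 (160.1 ± 25.9 CPM on the Cldn10 side and 281 ± 104 CPM on the Cldn16 side, -0.71 ± 0.16, edgeR adjusted p = 0.00162) and Tfcp2l1, a regulator of distal nephron and collecting duct cells (205 ± 42.0 CPM on the Cldn10 side and 312 ± 42.8 CPM on the Cldn16 side, -0.58 ± 0.14, edgeR adjusted p = 0.00236). Hoxd8 was not called with cells thinned to 1000 UMIs or matched on UMI count (edgeR adjusted p = 0.183 and 0.0724). Tfcp2l1 was not called with cells thinned or without the filter (edgeR adjusted p = 0.419 and 0.114), nor with DESeq2 (adjusted p = 0.0582). Tfap2b (-0.35 ± 0.14), Mecom (-0.39 ± 0.14), Pou3f3, a factor of loop development (-0.29 ± 0.17), and Ppargc1a, a regulator of mitochondrial genes (0.15 ± 0.13), did not pass. From the Notch pathway only the target gene Hes1 was tested, and it was higher, with 169 ± 38.6 CPM on the Cldn10 side and 88.5 ± 57.2 CPM on the Cldn16 side (1.01 ± 0.21, edgeR adjusted p = 6.19e-04, 6 of 7 libraries).

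Of 40 genes listed for secreted proteins and peptides, 17 were tested, 2 higher and 7 lower (3.7% and 3.91% over all genes tested), with a median log2 fold change of -0.12. The lower ones were Wfdc2, Egf, Sostdc1, an antagonist of BMP and Wnt signals (830 ± 188 CPM on the Cldn10 side and 1489 ± 381 CPM on the Cldn16 side, -0.79 ± 0.09), the kallikrein gene Klk1 (-0.77 ± 0.11), the Wnt antagonist gene Sfrp1 (-0.61 ± 0.11), the kininogen gene Kng2 (-0.35 ± 0.10) and Ppp1r1a (-0.47 ± 0.08). Kng2 was not called without library 2 or 6 (edgeR adjusted p = 0.0713 and 0.106). Ppp1r1a encodes an inhibitor of a protein phosphatase inside the cell and is not itself secreted. Igfbp7, a binding protein of insulin-like growth factors (832 ± 94.3 CPM on the Cldn10 side and 570 ± 102 CPM on the Cldn16 side, 0.62 ± 0.10), and Wfdc15b (0.42 ± 0.10) were higher. Spp1 (-0.12 ± 0.11) and Umod did not pass.

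Subunits of the vacuolar proton pump, a list drawn up after their values were seen, included 5 of 10 tested that were lower on the Cldn10 side (3.91% over all genes tested) and none higher, with a median log2 fold change of -0.28. Under the filter, the accessory genes Atp6ap1 (1.14 ± 0.29, edgeR adjusted p = 0.0102) and Atp6ap2 (1.00 ± 0.31, adjusted p = 0.0692) ran the other way in the fit without it, each higher on the Cldn10 side in 7 of 7 libraries. Atp6v1f had the smallest error, with a median of 576 CPM (444 to 863) on the Cldn10 side and 1209 CPM (814 to 1446) on the Cldn16 side (-0.88 ± 0.09, edgeR adjusted p = 4.07e-10, lower in 7 of 7 libraries). The others were Atp6v1b1, Atp6v1e1 (-0.49 ± 0.11), Atp6v1a (-0.48 ± 0.12) and Atp6v0e (-0.39 ± 0.11). Atp6v1a was not called without library 5 (edgeR adjusted p = 0.0839), nor Atp6v0e without library 2, 3, 5 or 7 (0.0655, 0.111, 0.0595 and 0.0839). With DESeq2, Atp6v1e1, Atp6v1a and Atp6v0e were not called (adjusted p = 0.0538, 0.134 and 0.3085). Atp6v0a4, Atp6v0b, Atp6v1g1, Atp6v1b2 and Atp6v1d did not pass. Markers of intercalated cells, which are rich in this pump, summed to 145 ± 60.5 CPM on the Cldn10 side and 200.2 ± 68.1 CPM on the Cldn16 side (ranges 62.5 to 255 and 122 to 308 CPM, lower on the Cldn10 side in 6 of 7 libraries). This list includes Atp6v1b1, called above, so the sum in part repeats that call. Atp6v1b1 averaged 64.9 ± 21.6 CPM on the Cldn10 side and 127 ± 39.1 CPM on the Cldn16 side. Under the filter, Atp6v1g3 averaged 53.4 ± 32.9 CPM on the Cldn10 side and 35.8 ± 40.6 CPM on the Cldn16 side. Atp6v0d2 averaged 3.86 ± 4.05 CPM on the Cldn10 side and 19.7 ± 18.0 CPM on the Cldn16 side. On the Cldn10 side 9 of 9 of these markers were detected, and on the Cldn16 side 7 of 9, with Slc4a1 and Aqp6 at 0. Their part in the result was not tested.

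Against 3.7% higher and 3.91% lower over all genes tested, of 52 nuclear genes of oxidative phosphorylation 1 was higher on the Cldn10 side, Ndufs6 (0.74 ± 0.10, edgeR adjusted p = 3.44e-07), and none lower, with a median log2 fold change of -0.09. All 13 mitochondrially encoded genes had a positive log2 fold change (median 0.23), and mt-Nd1 (0.33 ± 0.09), mt-Nd2 (0.29 ± 0.09) and mt-Nd4l (0.42 ± 0.09) passed. The call of mt-Nd1 was lost without library 2, 4, 5 or 7 (edgeR adjusted p = 0.0565, 0.0669, 0.0514 and 0.0685), and that of mt-Nd2 without library 2, 3, 4, 5 or 7 (0.0906, 0.0544, 0.113, 0.0745 and 0.133). The median mitochondrial share of a cell's UMIs was 24.0% ± 5.95 on the Cldn10 side and 21.1% ± 5.90 on the Cldn16 side (SD, n = 7). It was higher on the Cldn10 side in 6 of 7 libraries, by 2.93 ± 5.67 percentage points (mean ± SD of the library differences, two-sided exact sign-flip test, p = 0.234, the smallest possible being 0.0156). Without library 1 the difference was 4.46 points (exact p = 0.0312, the smallest possible with 6 libraries). Of 11 glycolysis genes tested 1 was lower, Aldoa (-0.41 ± 0.09), and of 17 genes of fatty acid and ketone use 1, Oxct1, which lets cells use ketone bodies (-0.39 ± 0.10). Without library 2 Oxct1 was not called (-0.30, edgeR adjusted p = 0.0592). No member of either list was higher. None of 46 ribosomal protein genes passed (median 0.06).

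Over all genes tested, 3.7% were higher and 3.91% lower on the Cldn10 side. Of 4 osmotic stress genes tested Cryab was higher, while Slc5a3, which imports the osmolyte myo-inositol (0.32 ± 0.11, edgeR adjusted p = 0.0747), and Nfat5, the tonicity-responsive factor (0.37 ± 0.23, adjusted p = 0.42), did not pass. The taurine transporter gene Slc6a6 of this list was under the filter, with 61 UMIs on the Cldn10 side and 5 on the Cldn16 side, and the fit without the filter gave 2.11 ± 0.56 (edgeR adjusted p = 0.0123, higher in 6 of 7 libraries). Txnip, which binds thioredoxin, was the 1 gene of 6 in the hypoxia list to pass and was lower on the Cldn10 side (449 ± 66.0 CPM on the Cldn10 side and 790 ± 138 CPM on the Cldn16 side, -0.77 ± 0.10). Ier3 was the 1 gene of 9 immediate early and heat shock genes to pass, and Jun (0.03 ± 0.27) and Hspa8 (-0.07 ± 0.11) did not. Dusp1 of this list was under the filter, with 62 UMIs on the Cldn10 side and 7 on the Cldn16 side. The fit without the filter gave 1.92 ± 0.51 for it (edgeR adjusted p = 0.0124, higher in 5 of 7 libraries). Of 5 injury genes tested, Igfbp7 was higher and Wfdc2 lower, both already given above, while the injury markers Spp1, Clu and Cd24a did not pass. Anxa2 of the injury list was under the filter, with 119 UMIs on the Cldn10 side and 7 on the Cldn16 side. It was higher on the Cldn10 side in 7 of 7 libraries, and the fit without the filter gave 2.95 ± 0.43 (edgeR adjusted p = 3.37e-09).

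**Figure D4:**
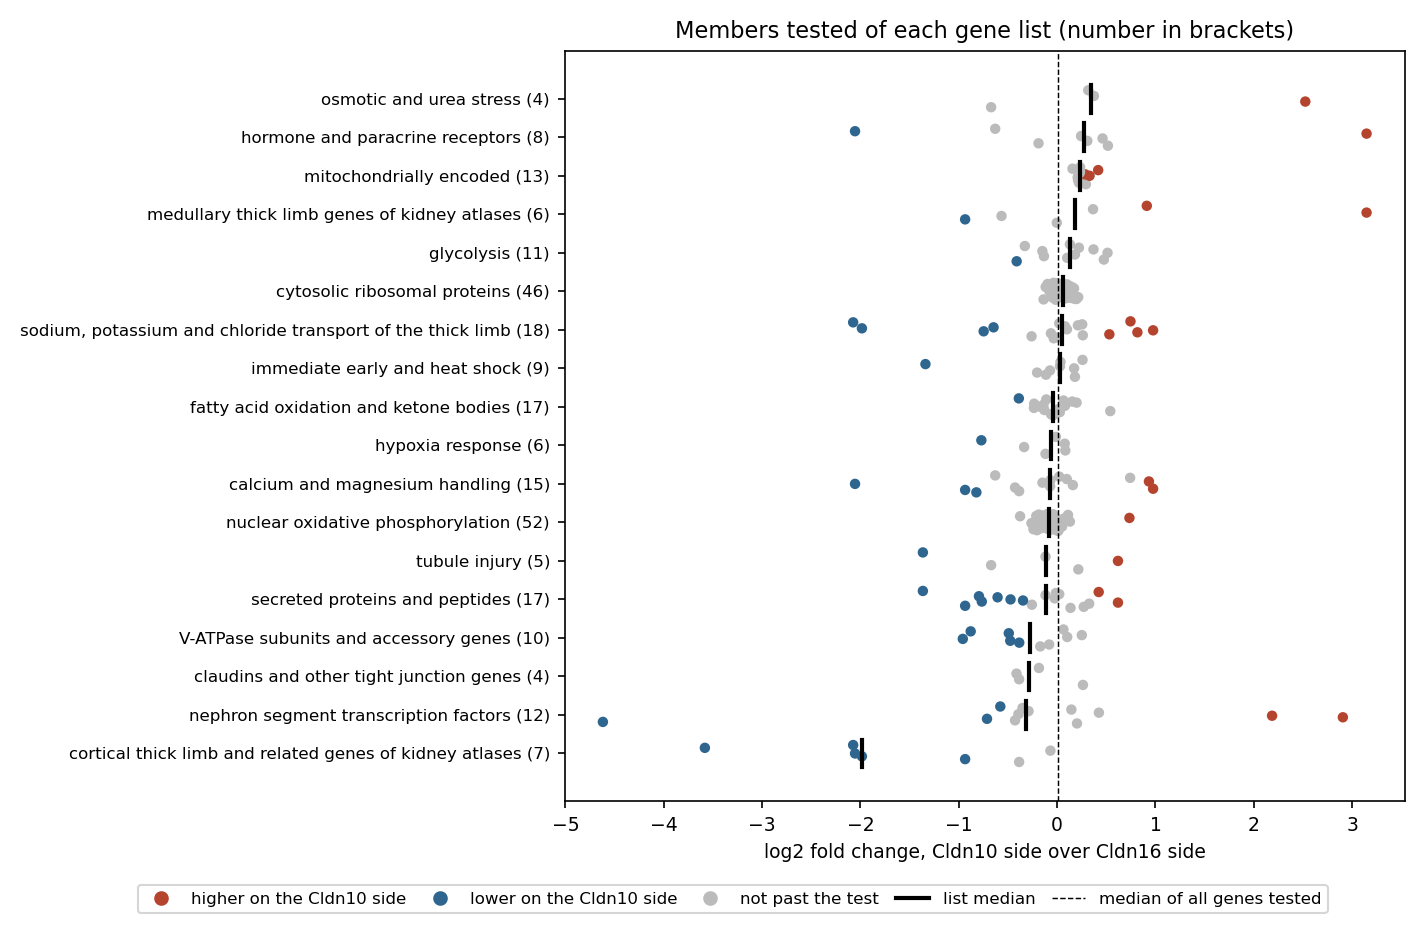
Log2 fold changes, Cldn10 side over Cldn16 side, of the tested members of each gene list with at least 4 of them, as points, with the list median as a black bar and the median of all genes tested, 0.01, as a dashed line. The cortical thick limb list has a median of -1.99, and the medians of the other lists lie between -0.32 and 0.35.

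RNA of other cell types was present on both sides. Proximal tubule markers, 21 of 21 of which were detected on each side, summed to 6419 ± 3945 CPM on the Cldn10 side (range 2970.0 to 14550.0) and 5175 ± 2819 CPM on the Cldn16 side (range 2419 to 10570.0), higher on the Cldn10 side in 5 of 7 libraries, compared with 47270.0 CPM in cluster 3. Of 12 tested, 3 were higher on the Cldn10 side and none lower (3.7% and 3.91% over all genes tested), with a median of 0.45. All 12 had a positive log2 fold change. The higher ones were the phosphate transporter gene Slc34a1 (0.52 ± 0.15), Slc27a2 (0.66 ± 0.21) and Gpx3 (0.42 ± 0.11). These calls were lost without single libraries: Slc34a1 without library 2, 4, 5 or 6 (edgeR adjusted p = 0.072, 0.062, 0.0647 and 0.0773), Slc27a2 without library 2, 3, 4, 5 or 6 (0.134, 0.0711, 0.112, 0.073 and 0.226) and Gpx3 without library 2 or 4 (0.117 and 0.0804). A higher level in cluster 3 than on the Cldn10 side was seen for 17 of the 72 higher genes, 17 of the 76 lower genes and 719 of all 1945. This sets the higher genes against their high side and the lower genes against their low side. Set against the Cldn16 side, cluster 3 was higher for 35 of the 72 higher genes and 4 of the 76 lower genes. Ptger3 (1.35 CPM in cluster 3), Irx1 (0.618 CPM) and Irx2 (0.492 CPM) were near 0 there. Fxyd2 was not, at 7851 CPM, nor were Enpp2 (169 CPM), Apoe (128 CPM) and Degs1 (87.6 CPM). Without the 25% of cells with the highest share of proximal tubule markers, 63 genes were higher and 67 lower, of which 54 and 65 were among those above, and Slc34a1 was not called (0.27, edgeR adjusted p = 0.634).

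Distal convoluted tubule markers summed to 1627 ± 876 CPM on the Cldn10 side (median 1858, highest 2872) and 1135 ± 1119 CPM on the Cldn16 side (median 853, highest 3577), higher on the Cldn10 side in 6 of 7 libraries, with 8 of 8 detected on each side and 35210.0 CPM in cluster 5. Most of both sums was S100g, called above, with 1313 ± 713 CPM on the Cldn10 side and 858 ± 1058 CPM on the Cldn16 side. Under the filter, Slc12a3 averaged 71.4 ± 73.7 CPM on the Cldn10 side and 36.3 ± 40.6 CPM on the Cldn16 side. The fit without the filter gave 1.20 ± 0.30 for Slc12a3 (edgeR adjusted p = 0.00527, higher in 5 of 7 libraries). Pvalb ran the other way in that fit (-0.93 ± 0.28, edgeR adjusted p = 0.0524), although higher on the Cldn10 side in 3 of 7 libraries. Wnk1 stood at 2529 CPM in cluster 5. Principal cell markers summed to 132 ± 56.8 CPM on the Cldn10 side and 128 ± 56.8 CPM on the Cldn16 side. Markers of podocytes, endothelium, mural cells and leukocytes had too few counts for the test. Podocyte markers were detected for 5 of 7 on the Cldn10 side and 1 of 7 on the Cldn16 side, endothelial ones for 5 of 8 on the Cldn10 side and 3 of 8 on the Cldn16 side, mural ones for 3 of 10 on the Cldn10 side and 0 of 10 on the Cldn16 side, and leukocyte ones for 13 of 14 on the Cldn10 side and 9 of 14 on the Cldn16 side, where the summed depth was lower. Leukocyte markers summed to 23.0 ± 14.3 CPM on the Cldn10 side (4.16 to 39.2) and 61.4 ± 88.8 CPM on the Cldn16 side (0 to 258), higher on the Cldn10 side in 3 of 7 libraries. Endothelial markers summed to 8.70 ± 6.89 CPM on the Cldn10 side and 19.5 ± 13.3 CPM on the Cldn16 side, higher on the Cldn10 side in 1 of 7. Podocyte markers summed to 13.4 ± 12.9 CPM on the Cldn10 side and 2.94 ± 3.76 CPM on the Cldn16 side, higher on the Cldn10 side in 6 of 7. Whether RNA of other cells plays a part in the genes called was not tested.

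A small group on the Cldn10 side carried genes of the macula densa, the patch of thick limb cells that senses luminal salt beside the glomerulus. None of the 12 listed genes passed the filter. Nos1, the neuronal nitric oxide synthase gene, had 62 UMIs on the Cldn10 side and 4 on the Cldn16 side and was higher on the Cldn10 side in 7 of 7 libraries, with 12.5 to 55.6 CPM there and 0 to 13.4 CPM on the Cldn16 side. The growth factor protease gene Pappa2 had 25 UMIs on the Cldn10 side and 0 on the Cldn16 side, and the vasopressin receptor gene Avpr1a had 17 on the Cldn10 side and 0 on the Cldn16 side. Robo2 had 29 UMIs on the Cldn10 side and 3 on the Cldn16 side, and Bmp3 had 24 on the Cldn10 side and 3 on the Cldn16 side. In the fit without the filter Nos1 (2.69 ± 0.57, edgeR adjusted p = 3.19e-04) and Pappa2 passed and the others did not. Ptgs2, the cyclooxygenase-2 gene, had 5 UMIs on the Cldn10 side and 4 on the Cldn16 side, with a lower level on the Cldn10 side (2.62 ± 3.90 CPM, against 4.41 ± 6.00 CPM on the Cldn16 side).

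Cells with a UMI of Nos1 or Pappa2 numbered 40 of 637 on the Cldn10 side and 3 of 271 on the Cldn16 side. The 40 had 419 CPM of Umod and 289 CPM of Egf, against 8867 and 4309 CPM in the other 597 cells of that side, while Slc12a1 stood at 4892 CPM in the 40 and 4406 CPM in the 597. Irx1 was at 475 CPM in the 40 and 130 CPM in the 597, Irx2 at 429 CPM in the 40 and 87.0 CPM in the 597, and Cryab at 0 in the 40 and 123 CPM in the 597. These cells were picked by their own UMIs, and the values are a description with no test. Without them 72 genes were higher and 78 lower, 65 and 69 of which were among those called above.

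Cells outside the rule lay between the sides for most named genes. Tmem52b averaged 136 CPM on the Cldn10 side, 512 CPM in cells with UMIs of both claudins, 1126 CPM in cells with neither and 1780.0 CPM on the Cldn16 side. In the same order of classes Foxq1 was at 12.7, 95.7, 198 and 380.5 CPM, and Wnk1 at 348, 690.1, 1088 and 1512 CPM. Ptger3 ran the other way in that order, at 295, 232, 106 and 27.5 CPM. Irx1, at 157 ± 56.1 CPM on the Cldn10 side and 178 ± 160.3 CPM in cells with both, did not differ between these classes beyond its spread, and Cryab in cells with both (34.4 ± 43.9 CPM) was nearer the Cldn16 side. Cells with both were deeper, with a median of 3015 UMIs, and cells with neither shallower, with 1838, so the classes also differ in what a cell of that depth can show.

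**Figure D5:**
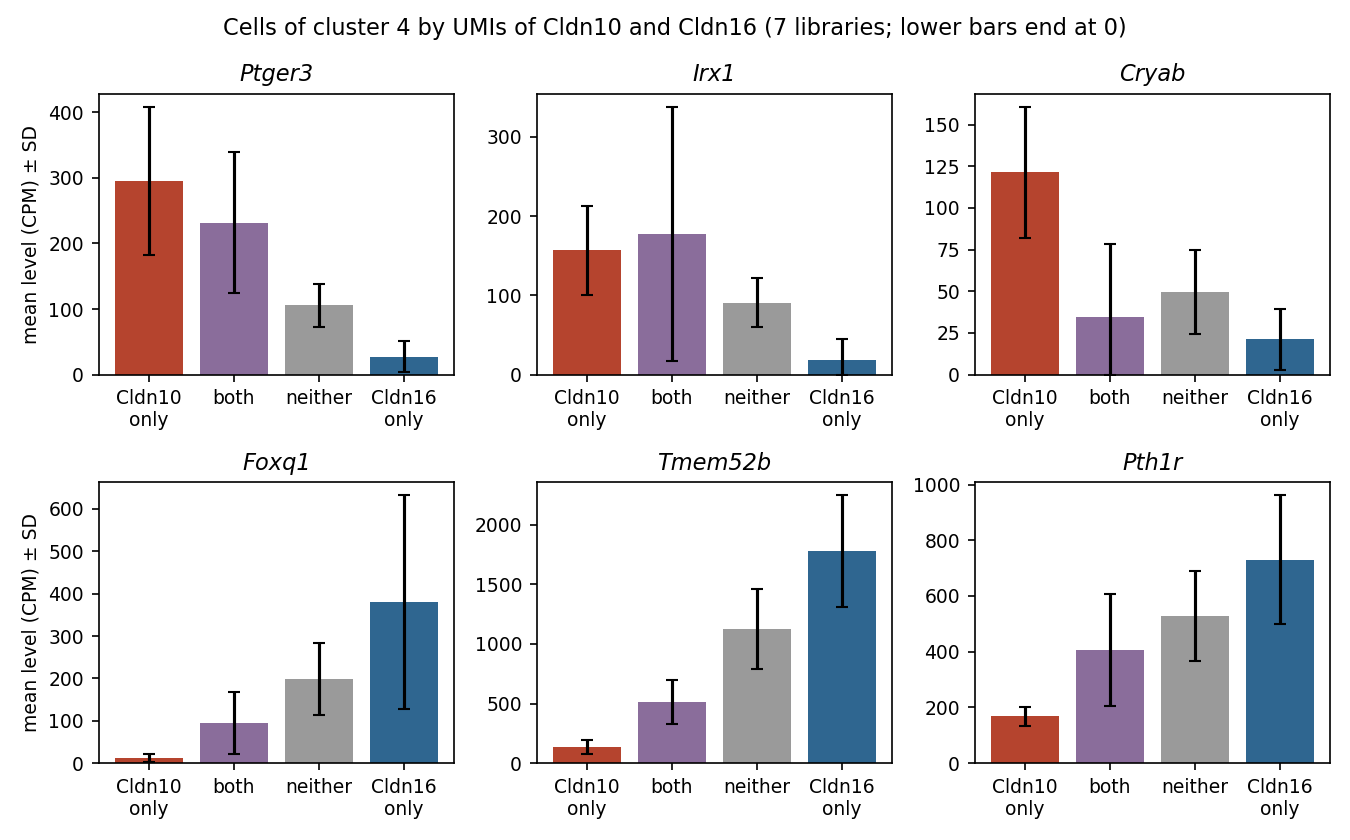
Mean levels in CPM with SD over 7 libraries of 6 genes in cells of cluster 4 with UMIs of Cldn10 alone, of both claudins, of neither and of Cldn16 alone. Ptger3 is highest with Cldn10 alone and Foxq1, Tmem52b and Pth1r with Cldn16 alone, while Irx1 in cells with both (178 CPM) stands beside the Cldn10 side (157 CPM).

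Within a side, levels also varied with the UMIs of the claudin that set it, pooled over libraries and given without a test. On the Cldn10 side Tmem52b stood at 234 CPM in cells with 1 UMI of Cldn10, 149 with 2, 144 with 3 or 4 and 107 with 5 or more. Pth1r stood at 230, 163, 166 and 93.8 CPM over the same steps. Cryab was at 77.4, 64.9, 81.8 and 203 CPM and Cldn19 at 112, 118, 185 and 208 CPM. On the Cldn16 side Foxq1 was at 328, 354, 660 and 439 CPM in cells with 1, 2, 3 or 4 and 5 or more UMIs of Cldn16, and Irx1 at 34.2, 0, 0 and 0 CPM. That side held only 15 Irx1 UMIs, in 7 cells. Irx1 stood at 1211 CPM in its 3 cells with a Nos1 or Pappa2 UMI and at 5.57 CPM in its other 268 cells. The step of 5 or more UMIs held 155 cells on the Cldn10 side and 5 on the Cldn16 side. Cells with more UMIs of a claudin were also deeper, with medians from 1839.5 to 3033 UMIs on the Cldn10 side.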

How the data were processed

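Cells of 7 whole mouse kidneys were made into 3′ droplet libraries (10x Chromium), per the labels' protocols. Cell Ranger 1.3 and STAR were used with the mm10 (GRCm38.p4) build, per the submitters' processing notes. The authors deposited a single matrix of UMI counts with a cluster number for each cell. It holds 43745 cells, against 57979 stated in the series' design text, and how cells were filtered is not given in the sources used here.

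The sides, gene lists, marker lists and tests were chosen with earlier results of these data known. Cells of cluster 4 were assigned by their UMIs of Cldn10 and Cldn16, and those genes were left out of the tests. No doublet caller was run, and cells with UMIs of both genes stayed out by the rule. Counts were summed per library and side (at least 5 cells, met by all 14 sums) and tested with edgeR 4.0.16 in R 4.3.3: filterByExpr (minimum count 10), TMM factors between 0.908 and 1.12, the quasi-likelihood F test with library as a block, and Benjamini-Hochberg adjustment over 1945 genes at 0.05. Both sides of a library come from the same kidney, which is where the pairing comes from. The common biological coefficient of variation was 0.102. Levels are CPM of the sums, as mean ± SD over libraries. With the library block, p-values weigh the difference between the sides against its spread from library to library. Differences in level between the libraries themselves are taken up by the block.

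In each direction the text names the 15 genes with the largest log2 fold change among those called, given the same sign in all libraries, 10 or more UMIs on the higher side and an average log2 CPM of 5 or more. Claudins and members of the ion transport lists could be named freely, and of other lists the members called and up to 6 with the highest level. Irx3, Jag1, Ptgds, Enox1, Esrrb, Gp2, Ppm1e, Slc6a6, Dusp1, Anxa2, Slc12a3, Pvalb, the macula densa genes and the vacuolar proton pump list were chosen after their values were seen. On simulated counts with 200 of 1945 genes changed, the fit found 88% of the 2-fold and 94% of the 4-fold changes and called 9 unchanged genes.

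Alternatives were DESeq2 1.42.0, edgeR scaled by the size factors of DESeq2, all genes without the low-count filter, no library block, a minimum of 20 cells in a sum, leaving out each library, cells thinned to 1000 UMIs or matched on UMI count in 5 depth bins, at least 2 UMIs of the gene that sets the side, cells without the 25% richest in proximal tubule markers, and a second side set by Cldn16 or Cldn19. Added after seeing the data were at least 2 UMIs of Cldn10, only cells with a Slc12a1 UMI, cells without a Nos1 or Pappa2 UMI, and cells without the tenth with the highest UMI counts. Some members of the lists are counted but not reported here by name. Positions are from GENCODE vM21 on GRCm38. Of the 30 genes named by the rule, 22 had a window in the RefSeq promoter table.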

Additional observations from a re-analysis of the deposited data

Results flagged for a closer look

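Of 152 groups of 7 libraries looked at, 1 gene on 1 side each, 12 held a library far from the others by Dixon's test, and chance flags about 1 in 20 groups (7.6 here). Library 3 stood high for Cryab on the Cldn10 side (207 CPM, the next library 121 CPM) and, on the Cldn16 side, for Foxq1 (889 CPM, next 477 CPM) and Irx1 (71.2 CPM, next 27.7 CPM). Library 7 stood high on the Cldn10 side for Kcnj10 (81.3 CPM, next 39.5 CPM) and mt-Nd2 (11780.0 CPM, next 7934 CPM). Library 6 stood high on the Cldn10 side for Slc27a2 (509 CPM, next 142 CPM), a proximal tubule marker. Library 5 stood high for mt-Nd4l on the Cldn10 side (5126 CPM, next 1940.0 CPM) and on the Cldn16 side (4314 CPM, next 1495 CPM), and for S100g on the Cldn16 side (3156 CPM, next 1011 CPM). Myl12a stood high in library 4 on the Cldn10 side (246 CPM, next 168 CPM) and in library 3 on the Cldn16 side (522 CPM, next 303 CPM), and Itgav in library 2 on the Cldn16 side (306 CPM, next 154 CPM).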

How the results depend on the processing

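Against 72 genes higher and 76 lower on the Cldn10 side, DESeq2 called 41 and 44, and the fit with no replicate block 40 and 44, all of them among those called with the block. Without a low-count filter 142 were higher and 65 lower of 13626, and the median log2 fold change of all genes was 0.20, to which values of the fit without the filter are relative. With cells thinned to 1000 UMIs, 20 were higher and 25 lower of 579 genes that could then be tested, with cells matched on UMI count 36 and 46 of 851, and with at least 2 UMIs of the gene that sets the side 37 and 39 of 920. Leaving out each library in turn gave 54 to 82 higher and 63 to 82 lower genes. The other 8 alternatives stayed within 1.5 times of both counts. The mitochondrial share kept its direction in all alternatives run, with 1.31 to 4.46 percentage points over leaving out libraries, where it passed an exact test once (without library 1), at the smallest p that 6 libraries allow. With at least 2 UMIs of the gene that sets the side it was 6.08 points (exact permutation p = 0.0781).

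For genes named by the rule, 550 of 552 values under the alternatives kept their call and none reversed. The rule required the same sign in all libraries, which favours keeping a call when a library is left out. Of these 30 genes, only 7 had a value with cells thinned and 12 with cells matched on UMI count. With at least 2 UMIs of the gene that sets the side 11 had a value, and 2 of these lost the call. Over the 75 genes followed, which the filtered edgeR fit called and the text names, 1323 of 1472 values kept their call, 149 lost it and none reversed. The minimum of 20 cells changed no sum, so its values, 30 and 75 of these, repeat the main fit. Genes under the low-count filter were not followed. With DESeq2, 18 of the 74 genes that had a value lost the call. Without the replicate block 26 of 75 lost the call, among them Hes1 (adjusted p = 0.0636), Wnk4 (0.0995), S100g (0.754) and Sfrp1 (0.432) and all 3 mitochondrial genes. The cause was not tested. Few UMIs per cell limit what low genes can show, and 14325 of 16270 genes were not tested.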

Other observations

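Other genes past the edgeR test, picked here after their values were seen, belong to none of the lists. Bckdhb, a subunit of the branched-chain keto acid dehydrogenase, was higher on the Cldn10 side in 7 of 7 libraries, with a log2 fold change of 1.05. The creatine kinase gene Ckb (1.27), the adhesion gene Epcam (0.72) and the lipoprotein lipase gene Lpl (0.80) were higher on the Cldn10 side as well. The actin gene Actg1 was lower there (-0.46, in 7 of 7 libraries), as were the myosin light chain gene Myl12a (-0.68, 6 of 7) and Tmsb4x, which encodes an actin-binding peptide (-1.49, 5 of 7). Acadsb, an enzyme gene of isoleucine breakdown (-0.64), the glucose cotransporter gene Slc5a1 (-0.70), the integrin gene Itgav (-0.69), Lgals3 (-0.71) and Id2 (-0.72) were lower on the Cldn10 side in 7 of 7 libraries. By edgeR adjusted p, Myl12a was not called without library 3 (0.0873), Acadsb without library 4 (0.103), Slc5a1 without library 5 (0.0946) and Itgav without library 2 (0.179).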
